A study of Mus musculus with 4 samples.

Results

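Single-nucleus RNA sequencing of mouse brain was used to describe the voltage-gated sodium and calcium channel genes by cell type, by region label and by AAV label. The members were chosen by name alone: every gene symbol of the count tables that names a sodium channel subunit (Scn followed by a number and a or b) or a calcium channel subunit (Cacna1a to Cacna1i, Cacna2d1 to Cacna2d4, Cacnb1 to Cacnb4 and Cacng1 to Cacng8). This gave 39 of the 31053 genes in the tables. The 4 libraries came from male C57BL/6J mice aged 8 weeks that had received an AAV into the cisterna magna at 4 weeks of age. One vector coded for VEGF-C (AAV-VEGF-C), a growth factor of lymphatic vessels. The other, AAV-CTRL, coded for a soluble part of the VEGF-C receptor that does not bind VEGF-C, so the control animals carried a vector and a transgene too. The brains of 5 mice were pooled per vector, and both regions came from these brains. Each combination of region and vector was therefore 1 library. Where 4 values are listed, the pair with the cortex label comes first and the pair with the striatum label second, and within each pair AAV-CTRL precedes AAV-VEGF-C. With 1 library per group no difference could be tested, and the intervals below are 95% intervals that cover counting error only.

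As background, voltage-gated sodium channels open on depolarization and carry the rising phase of the action potential. Their pore is an alpha subunit (Scn1a, Scn2a, Scn3a, Scn8a and others), to which beta subunits (Scn2b, Scn3b, Scn4b and others) attach. Voltage-gated calcium channels turn depolarization into calcium entry for transmitter release, firing patterns and gene regulation. Their pore is an alpha-1 subunit, of L type (Cacna1c, Cacna1d, Cacna1f), P/Q, N or R type (Cacna1a, Cacna1b, Cacna1e) or T type (Cacna1g, Cacna1h, Cacna1i). Pores of the L, P/Q, N and R types are carried to the membrane and tuned by an alpha-2-delta and a beta subunit. Of the gamma family, Cacng1 and Cacng6 belong with muscle-type channels, whereas Cacng2, Cacng3, Cacng4, Cacng5, Cacng7 and Cacng8 code for TARPs, which accompany AMPA-type glutamate receptors.

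The libraries held 17168, 20370, 23724 and 17466 barcodes, and after removal of called doublets 16151, 18820, 21457 and 16486 nuclei were kept, with a median of 2476, 2622, 2133 and 2547.5 UMIs (unique molecules) per nucleus. Between 76 and 118 barcodes were shared by any 2 libraries, at most 0.658% of the smaller one. All barcodes, called doublets included, were first clustered without the member genes. After the doublets were removed, neuronal, vascular and immune nuclei were clustered again, also without the member genes. The clusters of the 72914 kept nuclei were named from fixed marker genes. Of these nuclei 16190 were left as shallow neurons, unresolved neurons or unnamed, and the others fell into 37 classes. The class named by dopaminergic markers joined clusters that differed: 77 nuclei led by Th and Slc6a3, 34 nuclei led by Tph2 and Slc6a4, which mark serotonergic neurons, and 47 nuclei with none of its markers among the leading genes. It is therefore called the mixed Th and Tph2 class. The region labels went against the markers in part. D1-type striatal projection neuron (SPN)-like nuclei numbered 667, 848, 273 and 194, so there were more under the cortex label. Thalamic-type neuron-like nuclei numbered 1, 23, 1021 and 988, and cerebellar granule neuron-like nuclei 16, 6, 153 and 143. The region is therefore given as a label throughout. Of the 266 olfactory sensory neuron-like nuclei, which belong to the nose, 241 were in the striatum AAV-CTRL library, as were 233 of 274 nasal sustentacular-like and 113 of 127 osteoblast-like nuclei.

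Of the 39 members, 36 reached 100 UMIs over the 4 libraries. The other 3 were Scn4a, the sodium channel of skeletal muscle, with 9 UMIs, and Scn10a and Scn11a, both channels of pain-sensing neurons, with 54 and 63 UMIs. Several members lie near each other in the genome (coordinates of GRCm38, the assembly that mm10 stands for, from the GENCODE annotation). On chromosome 2, Scn3a (65457118 to 65567627), Scn2a (65620771 to 65767447), Scn1a (66270778 to 66440840), Scn9a (66480080 to 66634962) and Scn7a (66673425 to 66784914) follow each other, with Scn2a on the plus and the others on the minus strand. On chromosome 9, Scn10a (119608456 to 119719322) neighbours Scn11a (119753759 to 119825456), and Scn2b (45117782 to 45130070) neighbours Scn4b (45138395 to 45154152). On chromosome 11, Cacng1 (107703218 to 107716522), Cacng4 (107732357 to 107794557) and Cacng5 (107874605 to 107915055) are neighbours, and on chromosome 7 so are Cacng7 (3332955 to 3368221), Cacng8 (3390683 to 3415648) and Cacng6 (3424195 to 3435667). On chromosome 2 each of the 5 members had a highest class of its own. These were the mixed Th and Tph2 class (Scn3a), cerebellar granule neurons (Scn2a), Pvalb interneurons (Scn1a), olfactory sensory neurons (Scn9a) and ependymal cells (Scn7a).

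In neurons together the members were mostly higher than in glial, vascular and other non-neuronal classes. Levels are given in CPM, the usual scaling of a gene's UMIs to the UMI total of its class, and are compared between classes for 1 gene at a time. Of the 36 members, 28 were higher in the neuronal classes in all 4 libraries, 3 (Cacna2d4, Cacng4 and Scn7a) were lower in all 4, and 5 (among them Cacnb1, Cacnb3, Cacng6 and Scn2b) had no single direction. Over the 4 libraries the median fold of neuronal over non-neuronal level was 2.5, from 0.382 for Cacna2d4 to 9.08 for Cacna1f, which rests on 291 UMIs. The share of all genes in each direction was not counted, so the counts of 28, 3 and 5 do not set the members apart from other genes. Among members of higher level, Cacna2d3 stood at 1100, 1070, 535 and 542 CPM in neurons and at 137, 128, 93.6 and 89.4 CPM in the other classes. Scn2b, in contrast, was at 119, 142, 134 and 157 CPM in neurons and at 128, 136, 111 and 117 CPM in the other classes, a fold of 1.14.

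RNA outside nuclei gives UMIs in nuclei that do not express a gene. Erythroid-like nuclei, which should lack these channels, had Scn2b at 227 CPM, against 267 CPM in shallow neurons. Among the 10 members that span under 30 kb of genome the median level in erythroid-like nuclei was 169% of the mean level over all kept nuclei, and among the other 26 it was 49.9%. In microglia-like nuclei the medians were 113% and 41.4%. Over the 36 members the rank correlation of span and erythroid-like percentage was −0.67, a description across genes counted in the same libraries. The ratio of Scn1a to Scn2a UMIs was also set out by class. Over the 8 non-neuronal classes with at least 100 UMIs of the pair it was 0.324 to 0.505 in the cortex AAV-CTRL and 0.362 to 0.557 in the cortex AAV-VEGF-C library, whereas it was 0.759 to 1.03 over 11 and 0.641 to 1.2 over 9 such classes in the striatum-labelled libraries. Over the named neuron classes it ran from 0.356 to 2.05 in the cortex AAV-CTRL library. Among classes with at least 100 UMIs of the pair, the non-neuronal ranges thus did not overlap between the region labels. Classes under this minimum could lie outside these ranges, such as choroid plexus-like nuclei at 0.676 in the cortex AAV-CTRL library. The share of such background RNA in any class was not estimated.

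**Figure D1:**
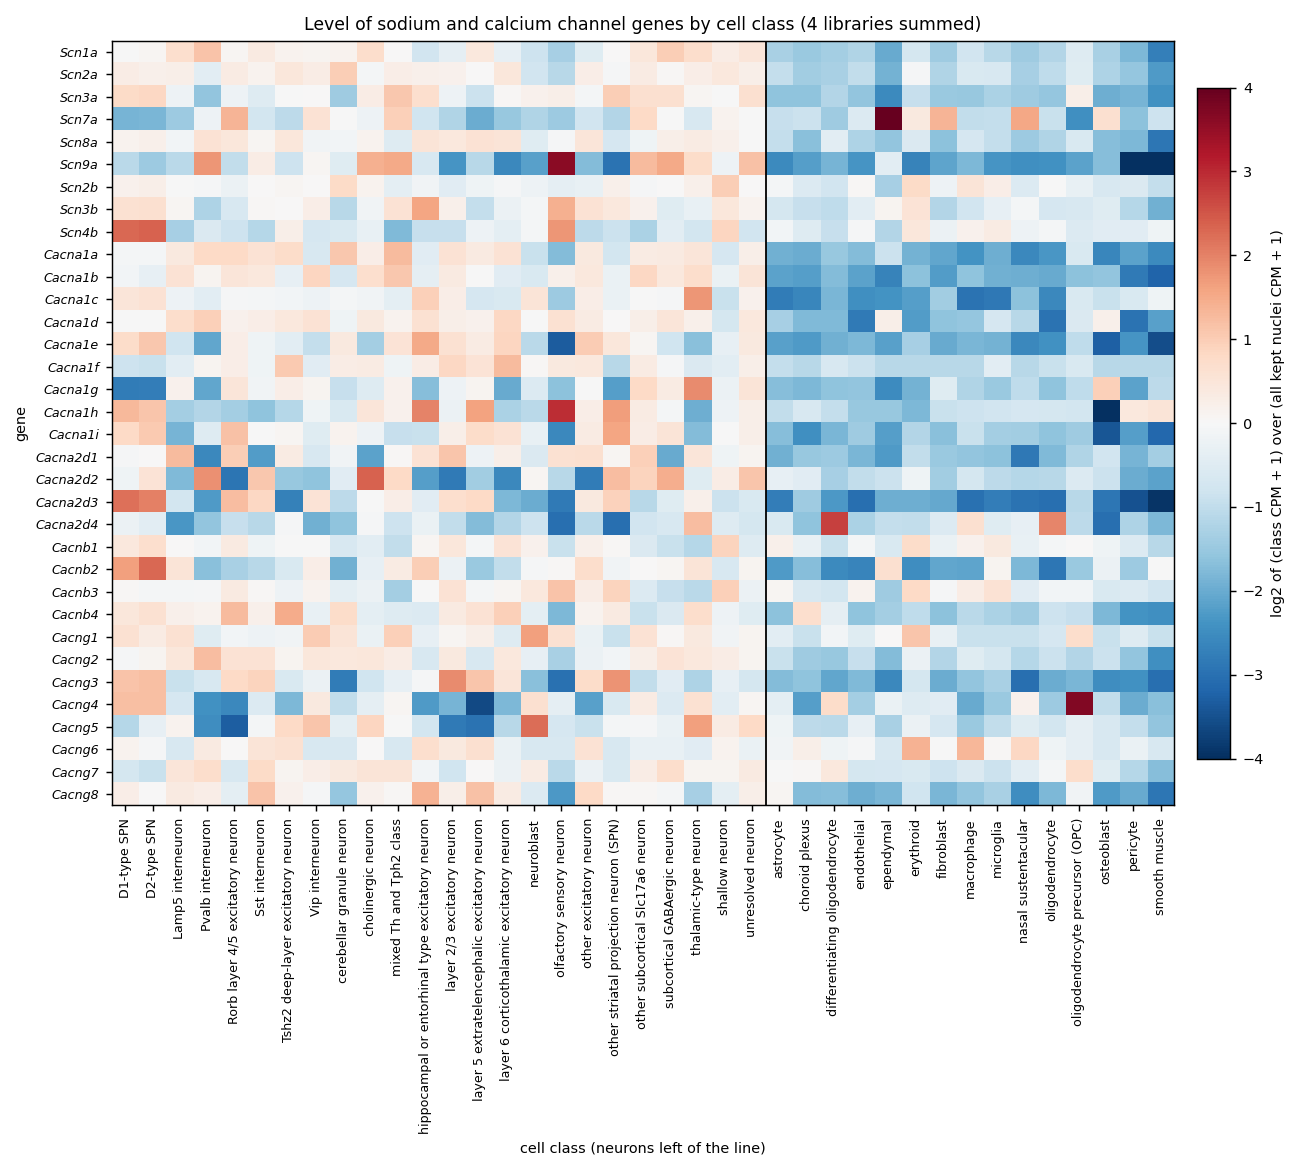
Level of 34 of the 36 members with at least 100 UMIs (rows) in the cell classes (columns), 4 libraries summed, as the log2 of the class CPM plus 1 over the CPM of all kept nuclei plus 1. Red is above and blue below the mean level, and the black line parts neurons (left) from other classes (right). The darkest red marks Cacng4 in oligodendrocyte precursors (880 CPM), Scn7a in ependymal cells (141 CPM) and Scn9a in olfactory sensory neurons (785 CPM), and most members are blue right of the line.

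For each member, starting with the sodium channel alpha subunits, the class with the highest level among classes of at least 50 nuclei was found, with its fold over all other kept nuclei. Scn1a, the main sodium channel of many inhibitory neurons, was highest in Pvalb interneuron-like nuclei, at 572 and 604 CPM in the cortex-labelled libraries (2.26-fold, interval 2.15 to 2.37). The next classes were subcortical GABAergic neuron-like nuclei, at 535 and 511 CPM in the striatum-labelled libraries, and thalamic-type nuclei at 441 and 419 CPM. Scn2a was highest in cerebellar granule neuron-like nuclei, at 784 and 637 CPM under the striatum label (1.98-fold, interval 1.79 to 2.17). Scn8a, the channel of mature nodes and axon initial segments, had the lowest fold of the 36 members, at 518 and 541 CPM in Pvalb interneuron-like nuclei (1.51-fold, interval 1.44 to 1.59), with an interval that overlapped that of the next class, layer 5 extratelencephalic neurons. Scn3a, known for its high level before birth, was highest in the mixed Th and Tph2 class, at 250 and 241 CPM under the striatum label (2.11-fold, interval 1.87 to 2.38), and its interval overlapped that of other SPN-like nuclei, a class of SPN markers without a D1 or D2 call. Within the mixed class Scn3a was at 303 CPM in the cluster led by Th, 234 CPM in that led by Tph2 and 141 CPM in the remaining one.

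Scn7a, coding for an atypical channel known from cells that sense body sodium, was at 94.4, 217 and 102 CPM in the ependymal-like nuclei of the cortex AAV-CTRL library and both striatum-labelled libraries, with under 50 such nuclei in the cortex AAV-VEGF-C library. In all other nuclei of those 3 libraries it was at 4.97, 6.71 and 5.76 CPM, and over the 4 libraries the fold was 25.6 (interval 22.6 to 29.0). After each nucleus was thinned to 1000 UMIs, 9.27% of ependymal-like and 0.287% of microglia-like nuclei had a UMI of Scn7a (26.7% and 0.461% before thinning). The next class, nasal sustentacular-like nuclei, was at 21.4 CPM.

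Scn9a was highest in olfactory sensory neuron-like nuclei, which only the striatum AAV-CTRL library held in number. Scn9a, a channel of sensory neurons, was at 794 CPM there against 90.7 CPM in the other nuclei of that library, and over the 4 libraries the fold was 12.8 (interval 11.6 to 14.1). Within the brain classes Scn9a was highest in Pvalb interneuron-like nuclei, at 222 and 216 CPM under the cortex label, then in the mixed Th and Tph2 class at 170 and 191 CPM and subcortical GABAergic neuron-like nuclei at 157 and 205 CPM under the striatum label. Cacna1h, a T-type channel, was also highest in olfactory sensory neuron-like nuclei, at 197 CPM against 21.0 CPM in the other nuclei of the striatum AAV-CTRL library (8.11-fold over the 4 libraries, interval 6.61 to 9.85). It was at 97.5, 102, 90.3 and 80.3 CPM in hippocampal or entorhinal type neurons, the next class.

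Of the sodium channel beta subunits, Scn4b, which is known for its role in resurgent sodium current, set SPN-like nuclei apart. It was at 163, 214, 134 and 171 CPM in D2-type SPN-like nuclei and at 34.5, 42.0, 27.4 and 22.9 CPM in all other nuclei (5.82-fold, interval 5.47 to 6.20). D1-type SPN-like nuclei were at 159, 213, 141 and 134 CPM, within the counting interval of the D2 type. Scn3b was highest in hippocampal or entorhinal type neurons, at 221, 188, 150 and 148 CPM (3.16-fold, interval 2.97 to 3.36), with an interval that overlapped that of olfactory sensory neuron-like nuclei. Scn2b was highest in shallow neurons, at 2.1-fold, and erythroid-like nuclei were among the next 2 classes. After thinning, 22.6% of shallow neurons and 23.7% of erythroid-like nuclei had a UMI of Scn2b, so no class stood above the erythroid-like share for it at this depth.

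Among the calcium channel pores, thalamic-type neurons had the highest level of both an L-type and a T-type gene. Cacna1c, an L-type channel, was at 2390 and 2240 CPM in thalamic-type neuron-like nuclei of the striatum-labelled libraries against 554 and 495 CPM in their other nuclei (4.09-fold over the 4 libraries, interval 4.04 to 4.14). Hippocampal or entorhinal type neurons followed with 1370, 1230, 1410 and 1330 CPM of Cacna1c. Cacna1g, the T-type channel known for burst firing of thalamic neurons, was at 167 and 188 CPM in thalamic-type nuclei and at 46.4 and 46.4 CPM in the other nuclei (4.62-fold, interval 4.43 to 4.81). D1-type SPN-like nuclei had 4.97, 4.81, 10.4 and 8.12 CPM of Cacna1g, below the 17.6 and 18.2 CPM of astrocyte-like nuclei under the striatum label. The T-type gene Cacna1i was highest in other SPN-like nuclei, at 151 CPM in the striatum AAV-CTRL library against 40.2 CPM in its other nuclei (3.05-fold over the 4 libraries, interval 2.34 to 3.91), on 62 UMIs and with an interval that overlapped that of Rorb layer 4/5 neurons.

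Cacna1e, the R-type channel, was highest in hippocampal or entorhinal type neurons, at 1180, 1160, 1090 and 1010 CPM against 480, 473, 288 and 278 CPM in the other nuclei (3.00-fold, interval 2.93 to 3.08). Cacna1a, the P/Q-type channel of most central synapses, was highest in the mixed Th and Tph2 class, at 1330 and 1420 CPM (2.43-fold, interval 2.31 to 2.55). Its 3 clusters differed, with 1440 CPM of Cacna1a in the one led by Th, 1880 CPM in the one led by Tph2 and 783 CPM in the remaining one. Cerebellar granule neuron-like nuclei followed with 1500 and 972 CPM of Cacna1a. Cacna1b, the N-type channel, was also highest in this class, at 400 and 401 CPM (2.11-fold, interval 1.92 to 2.31, not apart from Vip interneuron-like nuclei), with 389, 504 and 324 CPM in the same 3 clusters. Cacna1d, the L-type channel that opens at lower voltage, was highest in Pvalb interneuron-like nuclei, at 662 and 704 CPM (1.94-fold, interval 1.86 to 2.03). Cacna1f, the L-type channel of the retina, was at 4.44 and 3.99 CPM in layer 6 corticothalamic neuron-like nuclei on 42 UMIs (4.08-fold, interval 2.87 to 5.68), and only 0.428% of these nuclei had a UMI of Cacna1f after thinning.

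Each of the 4 alpha-2-delta genes was highest in a class of its own. Cacna2d3, whose product is an accessory subunit like those of the other 3, was at 3000, 3020, 2660 and 2500 CPM in D1-type SPN-like nuclei and at 763, 732, 343 and 364 CPM in all other nuclei (5.33-fold, interval 5.27 to 5.40), and D2-type SPN-like nuclei followed with 2650, 2590, 2300 and 2130 CPM. Cacna2d2 was at 430 and 466 CPM in the cholinergic neuron-like nuclei of the striatum-labelled libraries against 120 and 134 CPM in their other nuclei (5.30-fold over the 4 libraries, interval 4.93 to 5.69), then at 318 and 323 CPM in the Pvalb interneuron-like nuclei of the cortex-labelled libraries. Cacna2d1, a target of gabapentin, was at 1180 and 1140 CPM in Lamp5 interneuron-like nuclei (2.44-fold, interval 2.33 to 2.55). Cacna2d4 was the only alpha-2-delta gene whose highest class was not neuronal. It was at 50.8, 56.4, 41.8 and 62.3 CPM in differentiating oligodendrocyte-like nuclei against 4.34, 4.22, 8.03 and 9.58 CPM in all others (8.07-fold, interval 6.75 to 9.59). Mature oligodendrocyte-like nuclei had 23.8, 30.7, 31.1 and 31.9 CPM of Cacna2d4 and precursors 3.04, 3.29, 2.98 and 2.29 CPM. The order of these 3 stages was the same in all 4 libraries.

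Of the calcium channel beta subunits, Cacnb2 and Cacnb4 reached 2.80-fold or more in their highest class, and the highest classes of Cacnb1 and Cacnb3 were shallow neurons and olfactory sensory neuron-like nuclei. Cacnb2 was at 2700, 2590, 1620 and 1650 CPM in D2-type SPN-like nuclei against 469, 450, 453 and 430 CPM in all others (5.45-fold, interval 5.35 to 5.54). D1-type SPN-like nuclei had less Cacnb2, at 1750, 1710, 1200 and 957 CPM, the reverse of their order in Cacna2d3. Both SPN types had less Cacnb2 under the striatum label than under the cortex label. Cacnb4 was at 1550 and 1480 CPM in Tshz2 deep-layer neuron-like nuclei (2.80-fold, interval 2.69 to 2.92), followed by Rorb layer 4/5 neurons at 1370 and 1290 CPM. Cacnb1 was highest in shallow neurons, at 77.1 CPM over the 4 libraries, and erythroid-like nuclei were at 69.7 CPM. Cacnb3 was highest in olfactory sensory neuron-like nuclei, at 89.1 CPM on 49 UMIs, followed by shallow neurons at 77.5 CPM, with intervals that overlapped.

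In the gamma family, Cacng4 was the clearest glial member. It was at 881, 823, 889 and 921 CPM in oligodendrocyte precursor (OPC)-like nuclei and at 34.3, 37.3, 60.8 and 68.2 CPM in all other nuclei (17.5-fold, interval 16.9 to 18.1). After thinning, 55.7% of OPC-like, 2.49% of microglia-like and 4.64% of erythroid-like nuclei had a UMI of Cacng4 (79.7%, 3.37% and 5.19% before thinning). Both SPN types were next, at 153 CPM each. Cacng3 was highest in layer 2/3 neurons, at 404 and 403 CPM under the cortex label against 142 and 146 CPM in the other nuclei (4.25-fold over the 4 libraries, interval 4.12 to 4.38), with an interval that overlapped that of other SPN-like nuclei. Cacng5 was at 77.5, 94.9 and 104 CPM in neuroblast-like nuclei of the cortex AAV-CTRL, cortex AAV-VEGF-C and striatum AAV-CTRL libraries against 7.93, 8.98 and 27.5 CPM in their other nuclei (5.03-fold over the 4 libraries, interval 3.94 to 6.32, on 74 UMIs), followed by thalamic-type nuclei with 59.0 and 55.2 CPM. Cacng2, the TARP whose loss gives the stargazer mouse, was at 366 and 364 CPM in Pvalb interneuron-like nuclei (2.4-fold, interval 2.25 to 2.54). Cacng8 was at 213, 191, 185 and 200 CPM in hippocampal or entorhinal type neurons (2.76-fold, interval 2.60 to 2.92), and Cacng7 at 154 and 145 CPM in Sst interneuron-like nuclei (1.72-fold, interval 1.57 to 1.87, not apart from subcortical GABAergic neurons). The muscle-type members Cacng1 and Cacng6 had 221 and 141 UMIs in all. Their highest classes rested on 4 UMIs and 1 UMI, and the largest value in any library was 9.18 CPM for Cacng1 in neuroblast-like nuclei and 15.5 CPM for Cacng6 in erythroid-like nuclei. In all, 20 of the 36 members reached 3-fold in their highest class, Cacng1 and Cacng6 among them on 4 UMIs and 1 UMI. The share of all genes that reach 3-fold in this way was not counted. In their highest class 34 of the 36 members had a share of nuclei with a UMI above that of microglia-like nuclei, beyond the counting intervals. After thinning this held for 31, the other 5 being Cacna1f, Cacnb1, Cacnb3, Cacng1 and Cacng6. Each class was picked as the highest from the same counts, so a higher share there was largely given in advance. Neither count is therefore support for the class, and before thinning the classes also differed in depth.

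Ratios between related genes within a class separated the neuron types further. Such a ratio is compared between classes only, since 2 genes can be counted with unequal efficiency. Pvalb interneuron-like nuclei held 2.21 UMIs of Scn1a per UMI of Scn2a (interval 2.03 to 2.41), subcortical GABAergic neurons were next, and hippocampal or entorhinal type neurons held 0.372 (0.345 to 0.402). The ratio of Cacna1c to Cacna1d was 5.68 in thalamic-type neurons (5.53 to 5.83) and 9.69 in pericyte-like nuclei (8.20 to 11.5), but 0.301 in ependymal-like nuclei (0.263 to 0.344) and 0.415 in microglia-like nuclei (0.363 to 0.473). The ratio of Cacna2d1 to Cacna2d3 was 0.0926 in Sst interneuron-like nuclei (0.0826 to 0.103) and 6.37 in Tshz2 deep-layer neurons (5.33 to 7.65). That of Cacnb2 to Cacnb4 was 0.154 in Rorb layer 4/5 neurons (0.149 to 0.160) and 4.96 in smooth muscle-like nuclei (4.16 to 5.95). For Cacng2 to Cacng3 the ratio was 5.17 in Pvalb interneuron-like nuclei (4.45 to 6.02) and 0.418 in layer 5 extratelencephalic neurons (0.372 to 0.469). It was 13.9 in cerebellar granule neuron-like nuclei (7.09 to 31.1), on 9 UMIs of Cacng3, and 0.376 in other SPN-like nuclei (0.274 to 0.51). Non-neuronal classes with at least 100 UMIs of this pair reached 7.74 in the striatum AAV-CTRL and 6.81 in the striatum AAV-VEGF-C library, so a high ratio was not particular to Pvalb interneurons. The ratio of Cacna1a to Cacna1b was 10.2 in cerebellar granule neuron-like nuclei (7.99 to 13.2) and 1.05 in Vip interneuron-like nuclei (0.939 to 1.17).

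**Figure D2:**
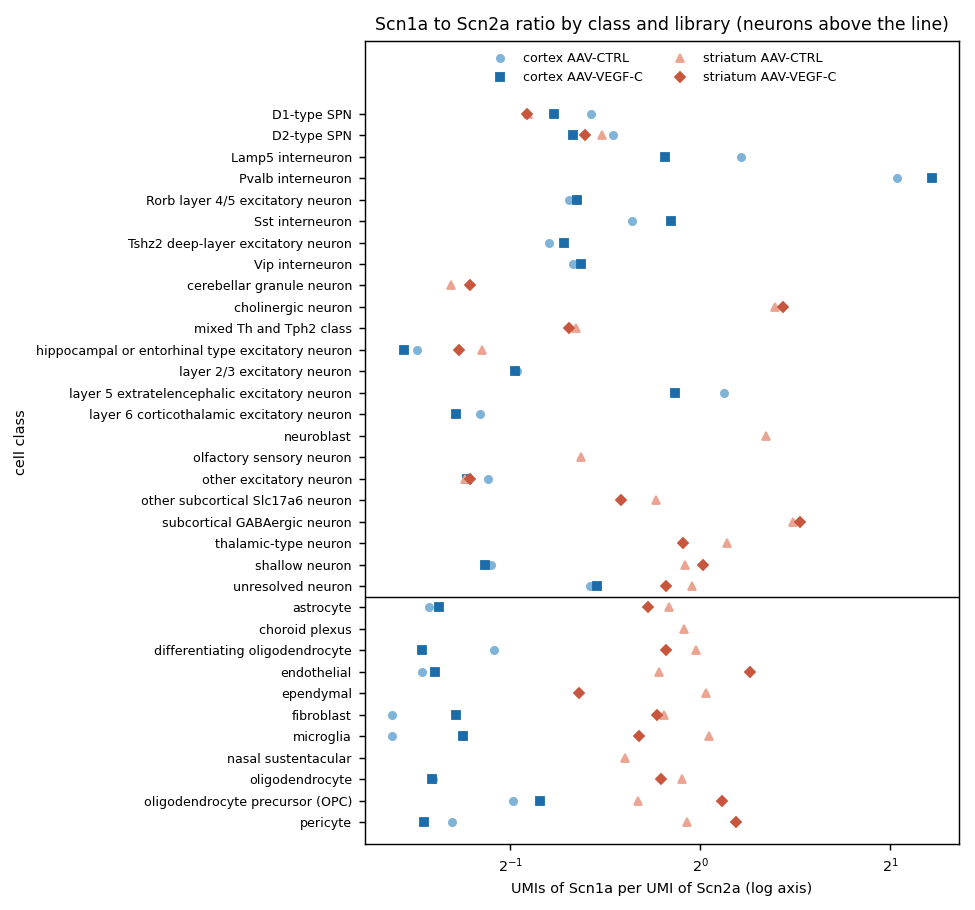
UMIs of Scn1a per UMI of Scn2a on a log axis, by cell class and library (1 point per library with at least 100 UMIs of the pair), neurons above and other classes below the line. The 2 cortex-labelled libraries lie between 0.324 and 0.557 in the 8 non-neuronal classes with enough UMIs. The 2 striatum-labelled libraries lie between 0.641 and 1.2 in the 11 and 9 such classes, whereas Pvalb interneurons reach 2.05 and 2.33 under the cortex label.

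Within the non-neuronal classes, 11 members had a class with at least 100 UMIs and at least 3-fold over the other non-neuronal nuclei. The share of all genes with such a class was not counted. Besides Cacng4 (23.5-fold in OPC-like nuclei), Scn7a (35.1-fold in ependymal-like nuclei) and Cacna2d4 (4.68-fold in differentiating oligodendrocyte-like nuclei), OPC-like nuclei stood out in Scn3a, at 130, 133, 147 and 134 CPM (3.58-fold, interval 3.28 to 3.90), and in Cacna2d3, at 307, 296, 298 and 280 CPM (3.15-fold, 2.97 to 3.34). Ependymal-like nuclei stood out in Cacnb2, at 638, 818 and 892 CPM in the 3 libraries with enough nuclei (5.73-fold, 5.44 to 6.04), in Cacna1d, at 484, 375 and 394 CPM (3.90-fold, 3.64 to 4.18, with osteoblast-like nuclei next at 413 CPM against 422 CPM over the 4 libraries), and in Scn9a, at 14.4, 65.5 and 70.9 CPM (4.33-fold, 3.49 to 5.32). Scn9a in ependymal-like nuclei was thus lower under the cortex label, as it was over whole libraries. Smooth muscle-like nuclei had Cacna1c, the L-type channel of vascular tone, at 511, 612 and 627 CPM in the 3 libraries with enough nuclei (3.69-fold, 3.45 to 3.95). Choroid plexus-like nuclei had Cacnb4 at 940, 958, 823 and 690 CPM (3.77-fold, 3.54 to 4.01). Astrocyte-like nuclei had Cacng8 at 90.2, 91.3, 64.9 and 72.8 CPM (3.09-fold, 2.87 to 3.34). Microglia-like nuclei had Cacnb2 at 542 CPM, second to ependymal-like nuclei. After thinning, 37.0% of microglia-like nuclei had a UMI of Cacnb2, against 8.76% of erythroid-like nuclei.

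Between the region labels, whole libraries differed in many members. A gene was called here when its CPM ratio was past 1.5-fold in either direction with at least 100 UMIs over the 2 libraries. In the AAV-CTRL libraries 8 of 35 members were higher and 8 lower under the striatum label, where 17.6% of all 17334 genes were higher and 8.22% lower. In the AAV-VEGF-C libraries 7 of 35 were higher and 9 lower, where 18.1% of 17397 genes were higher and 8.20% lower. The higher members were thus near the share of all genes in number, and the lower members were above it. The median log2 ratio of the members was −0.21 and −0.22, against 0.18 and 0.19 for all genes tested. These last values are the shift by which another scaling centres the ratios. With edgeR's TMM or DESeq2's size factors, 6 members were higher and 13 lower in both AAV labels. The share of all genes called with these factors was not counted, so these counts cannot be set beside the shares above. The median of the members was then −0.39 in the AAV-CTRL and −0.41 in the AAV-VEGF-C libraries. In both AAV labels 7 members were called higher (among them Cacna1g, Cacna2d2, Cacna2d4, Cacng4, Cacng5 and Scn9a) and 7 lower (Cacna1e, Cacna1f, Cacna2d3, Cacnb1, Cacnb3, Cacnb4 and Cacng3). The calls on Cacna1i, Cacng8, Scn4b and Scn7a were made in 1 AAV label only, and 17 members were called in neither. The share of all genes called in both AAV labels was not counted, so these counts do not set the members apart from other genes. Both AAV labels came from pools of mice of their own, but the striatum and cortex libraries of a label share the same mice.

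Of the higher members, Scn9a was at 25.6, 26.1, 95.8 and 103 CPM over all kept nuclei, a log2 ratio of 1.91 (1.82 to 1.99) in the AAV-CTRL and 1.98 (1.91 to 2.06) in the AAV-VEGF-C libraries. Cacng5 was at 8.20, 9.25, 27.9 and 25.2 CPM (1.77, interval 1.62 to 1.92, and 1.45, interval 1.31 to 1.58). Cacna2d2 was at 44.3, 46.9, 123 and 138 CPM (1.47, 1.41 to 1.54, and 1.56, 1.5 to 1.62). Cacna1g, Cacna2d4 and Cacng4 were higher by 0.80, 0.84 and 0.66 on the log2 scale in the AAV-CTRL and by 1.18, 1.13 and 0.75 in the AAV-VEGF-C libraries, from 34.4, 29.4, 59.8 and 66.7 CPM of Cacna1g, 4.71, 4.69, 8.44 and 10.3 CPM of Cacna2d4 and 48.8, 51.1, 77.4 and 86.2 CPM of Cacng4.

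Of the lower members, Cacng3 was at 165, 169, 50.5 and 51.7 CPM, a log2 ratio of −1.71 (−1.76 to −1.65) in both AAV labels. Cacna2d3 was at 880, 870, 390 and 402 CPM (−1.17, −1.20 to −1.15, and −1.11, −1.14 to −1.09). Cacnb1 was at 55.3, 58.8, 25 and 26.6 CPM (−1.15 and −1.14), Cacnb3 at 47.3, 56.8, 27.2 and 26.8 CPM (−0.80 and −1.09), Cacnb4 at 702, 687, 408 and 387 CPM (−0.78 and −0.83) and Cacna1e at 503, 497, 301 and 286 CPM (−0.74 and −0.80). Cacna1f was at 1.34, 1.49, 0.839 and 0.885 CPM, and its interval reached from −1.20 to −0.16 in the AAV-CTRL libraries. For all of these the lower value under the cortex label was above the higher value under the striatum label.

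Some of these members were also compared within a class present under both region labels. Cacng3 was at 250, 238, 228 and 225 CPM in D1-type SPN-like nuclei. It was at 112, 108, 90.3 and 102 CPM in hippocampal or entorhinal type neurons, but at 56.2, 53.5, 13.6 and 13.3 CPM in astrocyte-like nuclei. Erythroid-like nuclei had more Cacng3 than these astrocyte values, at 91.6 and 93.2 CPM under the cortex label and 28.7 CPM in the striatum AAV-VEGF-C library. The part of background RNA in the astrocyte values was not tested. Different clusters held most astrocyte-like nuclei under the 2 region labels: one cluster had 1825, 2284, 394 and 166 of them and the other 75, 71, 2517 and 1839. Cacna1e was at 654, 645, 700 and 701 CPM in D1-type SPN-like nuclei, which reverses the order of the whole libraries, and Cacnb4 at 769, 715, 811 and 704 CPM. Cacng4 was at 881, 823, 889 and 921 CPM in OPC-like nuclei. Scn9a stayed apart within hippocampal or entorhinal type neurons, at 20.7, 25.1, 81.1 and 77.6 CPM. In oligodendrocyte-like nuclei it was at 5.42, 3.48, 14.3 and 13.5 CPM. Over the 4 libraries these nuclei had 10.8 CPM of Scn9a, near the 11.5 CPM of microglia-like and 9.09 CPM of erythroid-like nuclei. The part of background RNA in the oligodendrocyte values was not tested. The numbers of nuclei per class differed between the region labels as given above, and their part in the region ratios was not tested.

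**Figure D3:**
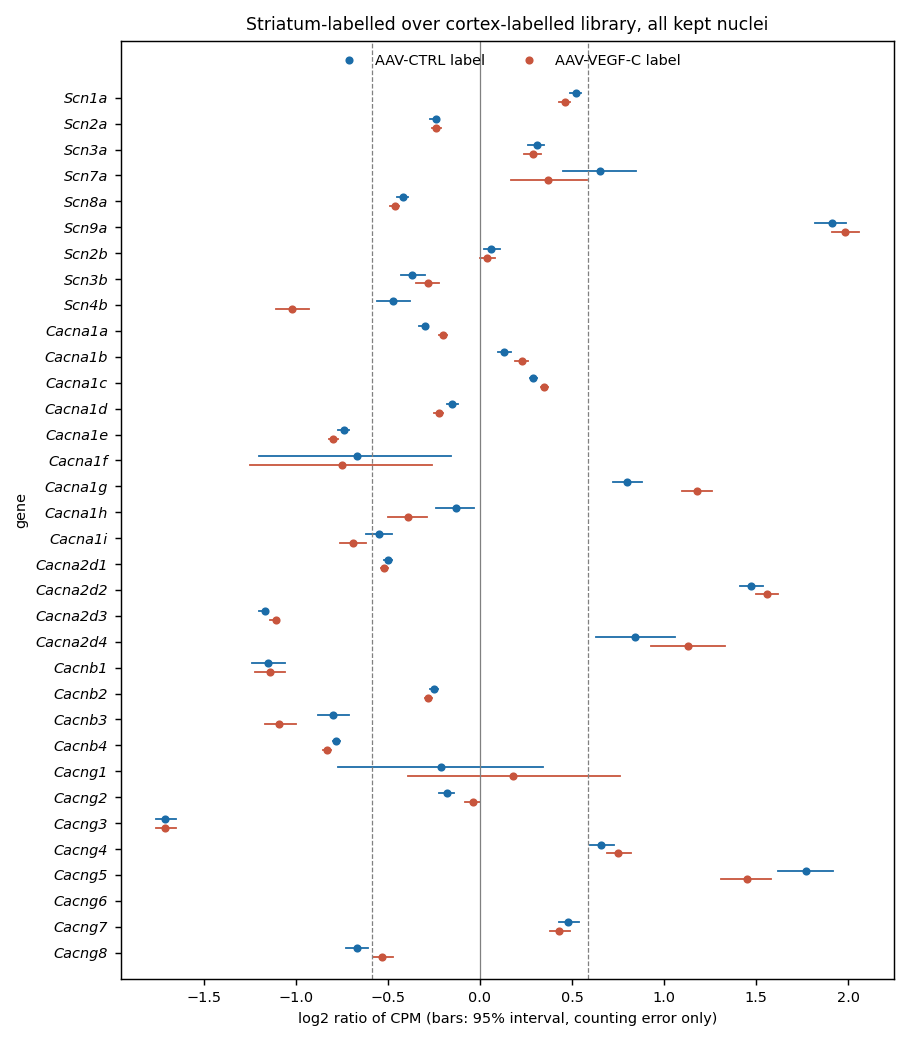
Log2 ratio of CPM, striatum-labelled over cortex-labelled library, over all kept nuclei, for the plotted members with at least 100 UMIs in the comparison, in the AAV-CTRL (blue) and AAV-VEGF-C (red) libraries. Bars are 95% intervals of counting error and dashed lines mark 1.5-fold. Both AAV labels lie close together for most members, from −1.71 for Cacng3 to 1.98 for Scn9a.

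Between the AAV labels no member passed 1.5-fold over all kept nuclei. The study compared these labels to learn what VEGF-C does in the brain. Under the cortex label 0 of 36 members were called higher and 0 lower, where 0.412% of 16999 genes were higher and 0.694% lower. Under the striatum label 0 of 35 were called in either direction, where 0.960% of 17495 genes were higher and 1.81% lower. With 1 library per group there is no unadjusted p-value to count. The log2 ratios of the members, AAV-VEGF-C over AAV-CTRL, ran from −0.37 to 0.34 under the cortex label (median 0.00) and from −0.40 to 0.28 under the striatum label (median −0.02), and 32 and 34 of them lay within 0.3 of 0. Counting error was small beside this for abundant members: Cacna2d3 was at 880 and 870 CPM under the cortex label (−0.02, −0.03 to 0.00) and at 390 and 402 CPM under the striatum label (0.04, 0.02 to 0.07). Scn2a was at 385 and 390 CPM under the cortex and at 325 and 331 CPM under the striatum label, a log2 ratio of 0.02 in both.

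Scn2b, a sodium channel beta subunit, had the same sign and a like size under both region labels. It went from 121 to 141 CPM under the cortex label (0.22, 0.18 to 0.27) and from 126 to 145 CPM under the striatum label (0.20, 0.15 to 0.24). Scn2b spans under 30 kb and is among the members with high levels in erythroid-like nuclei, and the part of background RNA in these ratios was not tested. Scn7a was at 5.73 and 5.25 CPM under the cortex label (−0.13, −0.34 to 0.09) and at 8.98 and 6.81 CPM under the striatum label (−0.40, −0.58 to −0.22). The striatum AAV-CTRL library held 187 and the striatum AAV-VEGF-C library 96 ependymal-like nuclei, the class in which Scn7a is highest.

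**Figure D4:**
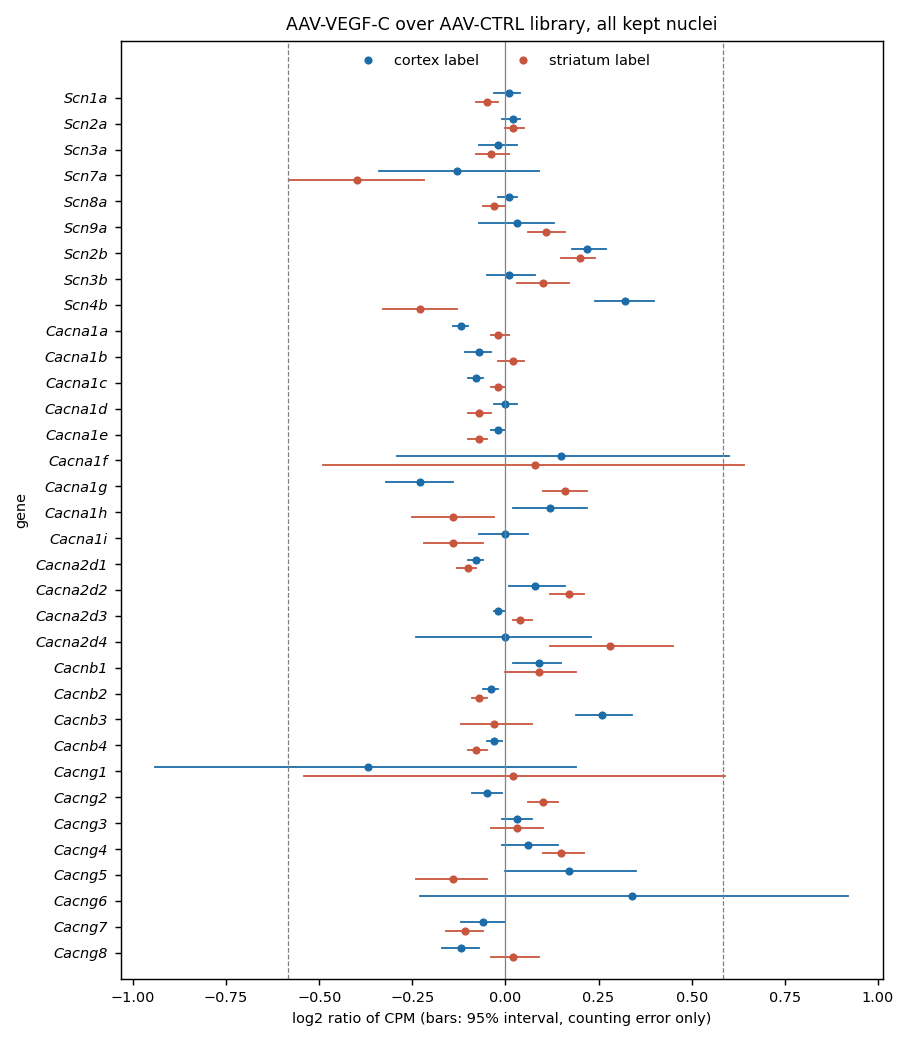
Log2 ratio of CPM, AAV-VEGF-C over AAV-CTRL library, over all kept nuclei, for the plotted members with at least 100 UMIs in the comparison, under the cortex label (blue) and the striatum label (red). Bars are 95% intervals of counting error and dashed lines mark 1.5-fold. All points lie between −0.40 and 0.34, inside the dashed lines.

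Within classes, 7 pairs of a member and a class under the cortex label and 14 under the striatum label passed 1.5-fold between the AAV labels. Under the cortex label 552 such pairs could be compared over 24 classes with at least 100 nuclei in each library. Of these, 4 were higher and 3 lower in AAV-VEGF-C, where 1.35% of all 150323 pairs of a gene and a class were higher and 0.781% lower. The higher pairs included Scn4b in unresolved neurons (23.8 to 38.0 CPM, log2 ratio 0.67, 0.18 to 1.18), a remainder class that different clusters held under the 2 region labels, Cacna2d2 in layer 5 extratelencephalic neurons (26.1 to 39.9 CPM, 0.61, 0.08 to 1.16) and Cacnb3 in Sst interneuron-like nuclei (32.8 to 49.2 CPM, 0.59, 0.05 to 1.13). The lower pairs included Cacna2d1 in microglia-like nuclei (249 to 148 CPM, −0.75, −1.05 to −0.45) and Cacnb2 in pericyte-like nuclei (183 to 117 CPM, −0.65, −1.01 to −0.29). In microglia-like nuclei of the striatum-labelled libraries Cacna2d1 had a log2 ratio of −0.11.

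Under the striatum label 375 pairs over 16 classes could be compared, of which 0 were higher and 14 lower, where 1.44% of all 114804 pairs were higher and 1.39% lower. Differentiating oligodendrocyte-like nuclei held 9 of the 14. In that class 9 of 17 members were lower in AAV-VEGF-C, where 11.8% of all 3351 genes compared in it were called in either direction. Cacna1d was at 182 CPM in AAV-CTRL and 64.8 CPM in AAV-VEGF-C (−1.49, −1.98 to −1.03), Cacnb2 at 146 and 54.8 CPM (−1.42, −1.95 to −0.91), Cacna2d3 at 186 and 74.7 CPM (−1.31, −1.77 to −0.87) and Scn3a at 87.3 and 38.6 CPM (−1.18, −1.84 to −0.55). Cacng4, the precursor gene, was at 175 and 82.2 CPM (−1.09, −1.53 to −0.66), and Cacna1b, Cacna2d1, Cacna1e and Cacna1c had log2 ratios of −1.05, −0.89, −0.78 and −0.59. Under the cortex label 0 of 10 members were called in this class, where 4.69% of all 2089 genes were called. Of the 9 members lower under the striatum label, Cacna2d3, Cacna1e, Cacna2d1 and Cacna1c had cortex-label ratios of −0.14, 0.05, 0.10 and 0.10. Cacna1d, Cacnb2, Scn3a, Cacng4 and Cacna1b had no ratio under the cortex label, so they could not be called there. The neuron markers moved with the result. Their summed level in this class, over all 10 markers, was 3170, 3580, 5010 and 2930 CPM, so it was highest in the striatum AAV-CTRL library, none of the 10 was at 0, and the highest single marker was at 696, 1070, 2920 and 1310 CPM. The class held 147, 187, 230 and 198 nuclei with a median of 2883, 3006, 3147 and 3832.5 UMIs, and its 12 oligodendrocyte markers summed to 21400, 22900, 19700 and 25300 CPM. The part of the neuron-marker difference in these ratios was not tested. The count differed between settings, for which the share of all pairs was not counted. It was 5 lower pairs in all when the member genes took part in the clustering, 6 at a finer resolution, 5 when each nucleus was thinned to 1000 UMIs and 4 with a minimum of 300 UMIs. With called doublets kept, the ratios of Cacna1d and Cacnb2 were −0.93 and −0.53.

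The other 5 lower pairs under the striatum label were Cacnb2 (284 to 156 CPM, −0.86, −1.20 to −0.53) and Cacna1a (163 to 102 CPM, −0.67, −1.10 to −0.25) in pericyte-like nuclei, Cacna1c (833 to 478 CPM, −0.80, −1.12 to −0.49) and Cacna1a (1500 to 972 CPM, −0.63, −0.85 to −0.40) in cerebellar granule neuron-like nuclei, and Cacna1d (56.9 to 37.4 CPM, −0.61, −1.09 to −0.13) in endothelial-like nuclei. Cacnb2 in pericyte-like nuclei was thus the only pair called under both region labels, at 183, 117, 284 and 156 CPM on 149, 121, 215 and 118 UMIs. Many of the other called pairs had no ratio under the other region label, so they could not be called there. The share of all pairs called under both region labels was not counted. In pericyte-like nuclei 2.45% of all genes compared were called in either direction under the cortex label and 4.56% under the striatum label. The neuron markers in pericyte-like nuclei summed to 2920, 2840, 2880 and 2580 CPM. In 258, 299, 300 and 222 pericyte-like nuclei the median was 2176.5, 2527, 1944 and 2832 UMIs, higher in both AAV-VEGF-C libraries. The class joined clusters of unlike depth. One, with a median of 3214 UMIs, held 153, 200, 169 and 147 nuclei. The other, with a median of 1369 UMIs, held 105, 99, 131 and 75. The part of this mix in the ratios was not tested. Cacna1a in pericyte-like nuclei had a ratio of 0.27 under the cortex label, and Cacna1d in endothelial-like nuclei one of 0.28. In cerebellar granule neuron-like nuclei 10.4% of all genes compared were called, on 153 and 143 nuclei, and the cortex-labelled libraries held too few of these nuclei for a ratio.

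**Figure D5:**
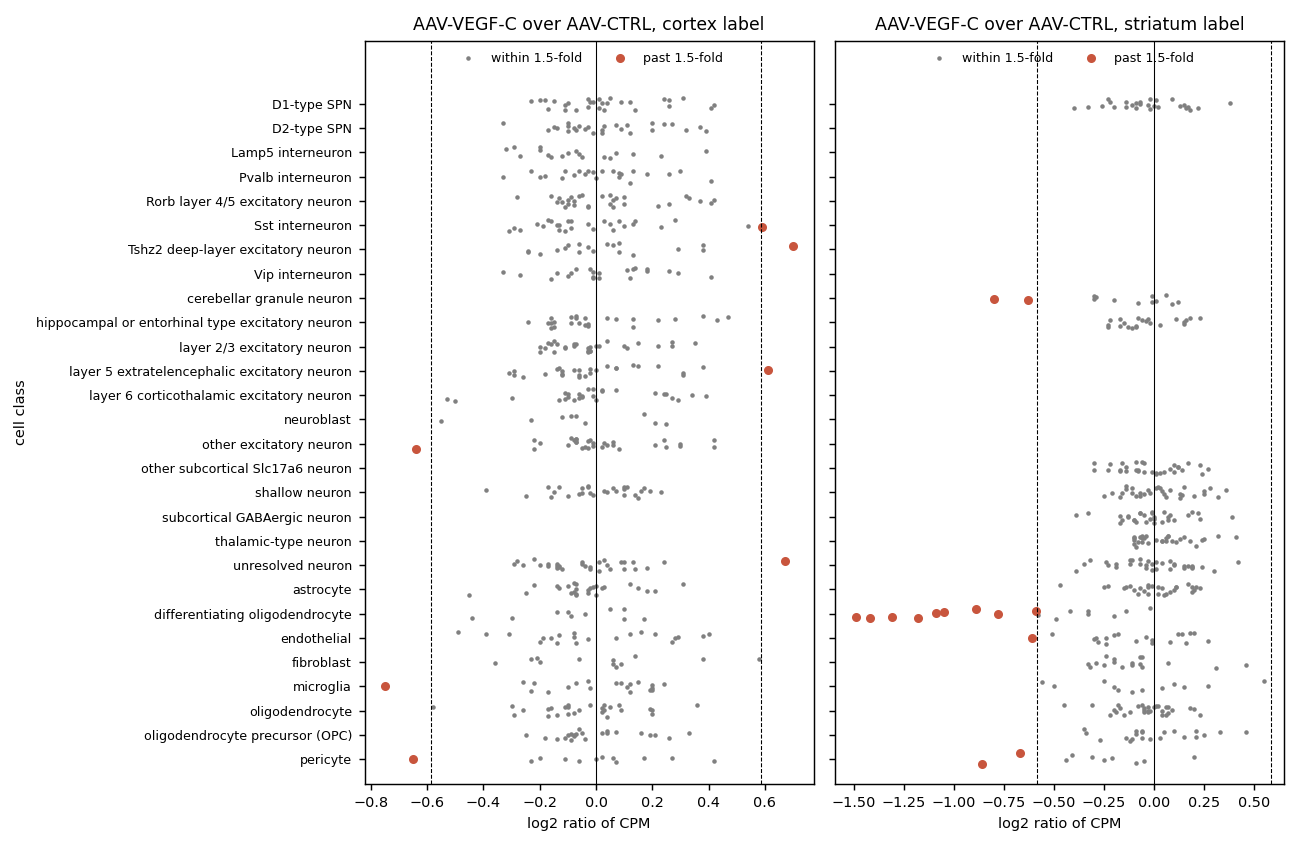
Log2 ratio of CPM, AAV-VEGF-C over AAV-CTRL, for each member (points) within each class (rows) with at least 100 nuclei in both libraries, under the cortex label (left) and the striatum label (right). The x axes differ between the panels. Red points are past 1.5-fold (dashed lines): 4 higher and 3 lower on the left and 14 lower on the right, 9 of them in differentiating oligodendrocytes.

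Genes that work with the channels were followed by 5 lists. Between the AAV labels none of their genes passed 1.5-fold under either region label (13 partners of sodium channels and the leak channel, 14 or 15 partners of calcium channels, 13 AMPA receptor and TARP partners, 22 or 23 genes of calcium release, entry, pumps and exchange, and 6 sodium pump genes), and the median log2 ratios of the lists ran from −0.10 to 0.05, with all-gene medians of −0.01 and 0.00. For the counts between region labels that follow, the shares of all genes called were those given above, 17.6% and 18.1% higher and 8.22% and 8.20% lower in the AAV-CTRL and AAV-VEGF-C libraries. The sodium channel partners had 1 gene higher and 1 lower of 13 in both AAV labels: Fgf13, a cytosolic partner of sodium channels (0.75 and 0.84), and Nedd4l, a ubiquitin ligase that takes channels from the membrane (−0.62 and −0.61). Of the calcium channel partners 2 were higher and 6 lower, of 14 in the AAV-CTRL and 15 in the AAV-VEGF-C libraries. Stac, an adaptor of L-type channels, was higher by 1.24 and 0.99 and Rrad, an inhibitor of the channels, by 0.90 and 1.22. Cabp1, a calcium-binding modulator, was lower by −1.39 and −1.52, and the active-zone scaffold genes Bsn (−0.93 and −0.91) and Erc2 (−0.82 and −0.81) were lower too.

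Of the AMPA receptor and TARP partners 5 and 7 of 13 were lower under the striatum label and 0 higher. Cnih3 was at 91.0, 98.9, 40.9 and 38.9 CPM (−1.15 and −1.35), Shisa7 had ratios of −1.01 and −1.02, and Gria3, an AMPA receptor subunit, −0.82 and −0.98. In the list of calcium release, entry and clearance 4 genes were higher and 7 lower of 23 in the AAV-CTRL libraries and 2 and 7 in the AAV-VEGF-C libraries, so the 4 higher of 23 were near the share of all genes. The sodium-calcium exchanger genes parted: Slc8a2 was lower (−1.75 and −1.80) and Slc8a3 higher (0.93 and 0.95). Itpr1, the main neuronal IP3 receptor, was at 457, 456, 204 and 179 CPM (−1.16 and −1.35), and Ryr1, a ryanodine receptor, was lower too (−1.23 and −1.64). Atp2a1, a muscle-type calcium pump, was higher by 1.66 and 2.17 at 0.521, 0.491, 1.65 and 2.20 CPM, and Atp2a3 had ratios of 0.79 and 0.56, the second just under the threshold. Of the 6 sodium pump genes 2 and 3 were higher and 1 lower. Atp1b2, a subunit known from astrocytes, was among the higher ones (1.12 and 1.05), and Atp1b3 had ratios of 0.54 and 0.65, the first just under the threshold.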

How the data were processed

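Nuclei of the 4 libraries had been sequenced by the authors with 10x 3′ v3 chemistry. The deposited files hold UMI counts per gene and barcode, not normalized, with Cell Ranger 5.0.1 in the file headers, 5.1.1 in the submitters' processing notes, and build mm10. All barcodes of these tables were taken as deposited. Doublets called by Scrublet, and clusters with at least 40% of them, were left out (4.31% to 7.95% of barcodes called). Before this, counts of all barcodes were normalized per nucleus and clustered (scanpy 1.11.5, leidenalg 0.10.2, 5000 variable genes, 50 components, 15 neighbours, resolution 1.2) without the members. Neuronal, vascular and immune nuclei were clustered again in the same way after the doublets were left out. Clusters were named from fixed markers, by a scoring rule set after the clusters were seen. Raw counts were summed per class and library over 57574456 to 69281435 kept UMIs. Levels needed 50 nuclei, ratios 100 nuclei per library and 100 UMIs, and a call a fold past 1.5. Intervals are exact (Poisson, Clopper-Pearson) at 95%. UMIs share libraries and pools, so intervals cover counting error only. The ratio code was tested on simulated data. No columns of other samples were present. Genome spans matched 30934 of 31053 genes.

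Members, lists and markers were chosen with earlier results of these data known. Every member was counted, and most named ones are those highest by class, past 1.5-fold, or higher and lower in both labels. Alternatives used edgeR 4.0.16 and DESeq2 1.42.0 scaling in R 4.3.3, other minimums, folds, resolutions and doublet handling, thinning to 1000 UMIs, and, chosen after seeing the data, removal of nasal and bone classes. Overlapping genes and strand were not resolved further here. A few genes are counted in the totals but not reported here by name.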

Additional observations from a re-analysis of the deposited data

Results flagged for a closer look

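For 5 members the ratio of AAV-VEGF-C to AAV-CTRL had opposite signs under the 2 region labels over all kept nuclei, with counting intervals on either side of 0 or reaching it. The differences below are striatum minus cortex label on the log2 scale. They were not tested, since each group is 1 library. Scn4b was at 0.32 (0.24 to 0.40) under the cortex and −0.23 (−0.33 to −0.13) under the striatum label, a difference of −0.55. Cacna1g was at −0.23 (−0.32 to −0.14) and 0.16 (0.10 to 0.22), a difference of 0.39. Cacng5 was at 0.17 (0.00 to 0.35) and −0.14 (−0.24 to −0.05), a difference of −0.31. Cacna1h was at 0.12 (0.02 to 0.22) and −0.14 (−0.25 to −0.03), a difference of −0.26. Cacng2 was at −0.05 (−0.09 to −0.01) and 0.10 (0.06 to 0.14), a difference of 0.15. Within unresolved neurons Scn4b was at 0.67 (0.18 to 1.18) and −0.35 (−0.58 to −0.12), a difference of −1.02. This class is a remainder, held by different clusters under the 2 labels: its 2 largest clusters of the cortex label had 178 and 204 nuclei, then 170 and 157, of 507 and 531, and under the striatum label 278 and 279, then 95 and 64, of 3824 and 2970.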

How the results depend on the processing

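Each group is 1 library, so no library could be left out. No paired analysis was possible because the result comes from no test and each group holds 1 library. Of 360 single values recomputed, 289 stayed within the counting interval, 71 left it in the same direction and 0 reversed. Of 153 summary values recomputed, 120 were counted as the same, including those without the olfactory, nasal and bone classes. This did not mean an equal value. In the AAV-CTRL libraries the number of members higher under the striatum label was 8, but 12 at 1.2-fold and 6 with TMM scaling, both counted as the same. The summary values not counted as the same follow, and where no construction explains them the cause was not tested. For the counts of calls among them, the share of all genes was not counted. With the gene length trend removed, the median member ratio between AAV labels was 0.07 under the cortex and 0.05 under the striatum label. At 1.2-fold, 3 members were higher and 2 lower between AAV labels under the cortex label and 1 and 1 under the striatum label, and 1 was lower under the striatum label after thinning. Between region labels, TMM and DESeq2 scaling both gave 13 lower members and a median of −0.39 in the AAV-CTRL and a median of −0.41 in the AAV-VEGF-C libraries, and at 1.2-fold 15 members were lower in the AAV-CTRL libraries and 12 higher and 16 lower in the AAV-VEGF-C libraries. Within classes under the cortex label, 12 pairs were higher and 6 lower with a minimum of 50 UMIs, 1 and 1 with 300 UMIs, 56 and 35 at 1.2-fold, and 6 lower at a resolution of 2.0. Under the striatum label, 5 were higher and 22 lower with 50 UMIs, 4 lower with 300 UMIs, 17 higher and 50 lower at 1.2-fold, 1 higher and 5 lower after thinning, 5 lower when clustered with the members, and 1 higher and 6 lower at a resolution of 2.0. The highest class stayed the same for 35 of 36 members when clustered with the members, 32 at a resolution of 2.0, 28 after thinning and 35 with no doublets left out. Among the 20 members at 3-fold or more, those that changed were Cacna2d4 with the members and at a resolution of 2.0, Cacna1f, Cacng1 and Scn4b after thinning, and Scn4b with no doublets left out. Depth limits Cacng1, Cacng6, Cacna1f, Scn4a, Scn10a and Scn11a, each under 300 UMIs in all.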
